A study of Mus musculus with 6 samples.

Results

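The genes that coat the lipid droplets of liver cells and control the breakdown of their fat were examined in livers of mice fed regular or soy-enriched chow. The set holds 10 genes, the perilipins Plin2, Plin3, Plin4 and Plin5, the Cide genes Cidea, Cideb and Cidec, and the lipolysis genes G0s2, Pnpla2 and Abhd5. They were chosen by name, with no measured value in the rule. A non-control probe counted as a member when its RefSeq accession belongs to one of these genes. That gave 14 of 56605 probes, and 10 of the 22911 genes that had a named probe. Plin2, Plin5, Cideb and Abhd5 have 2 probes each, and the other members have 1.

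Male mice, 12 weeks old, were kept for 28 days on granulated regular chow (control, 3 mice) or on chow made of 75% regular food and 25% soy bean powder (soy, 3 mice). The soy chow holds more fat than the regular chow, and the mouse strain is not given in the sources used here. Each mouse gave RNA of its right hepatic lobe to 1 single-colour Agilent whole-transcriptome array, so an array stands for a mouse. Slide 1 carried controls 1 and 2 beside soy 1, slide 3 carried control 3 beside soy 3, and soy 2 was alone on slide 2. The scanner software marked 33740 to 35521 probes as well above background in control livers and 28701 to 29881 in soy livers.

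A liver cell stores neutral fat in droplets, each a core of triglyceride and cholesteryl ester under a single layer of phospholipid. Perilipins sit on this layer and hold lipases off the core or bring them to it, and Cide proteins gather where droplets touch and pass lipid from a smaller droplet to a larger one. Pnpla2 (adipose triglyceride lipase) takes the initial fatty acid off a triglyceride, Abhd5 (CGI-58) activates it, and G0s2 inhibits it. Several of these genes, Plin2 among them, are known targets of the fatty acid receptor PPARA.

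None of the 10 genes passed the thresholds of the study, an adjusted p under 0.05 (limma, Benjamini-Hochberg over all probes) with a fold change above 1.5 or under 0.66. Over all genes, each taken by its brightest probe, 0.458% passed, 0.288% higher and 0.17% lower in soy. Before adjustment, limma gave a p under 0.05 for 3 members, Plin2 and Plin3 on the higher side and Pnpla2 on the lower side. Of all genes, 7.22% had such a p on the higher side and 7.04% on the lower side. Values of the 2 groups did not overlap for 1 member with higher values in soy, Plin3, and 1 with lower values, Pnpla2. Over all genes this held for 9.66% on the higher side and 10.8% on the lower side. The median difference of the members was -0.025 on the log2 scale, with 5 members above 0 and 5 below, beside a median of -0.0056 over all genes. With 10 members these counts lie near those of all genes, and nothing particular to the set is read from them.

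**Figure D1:**
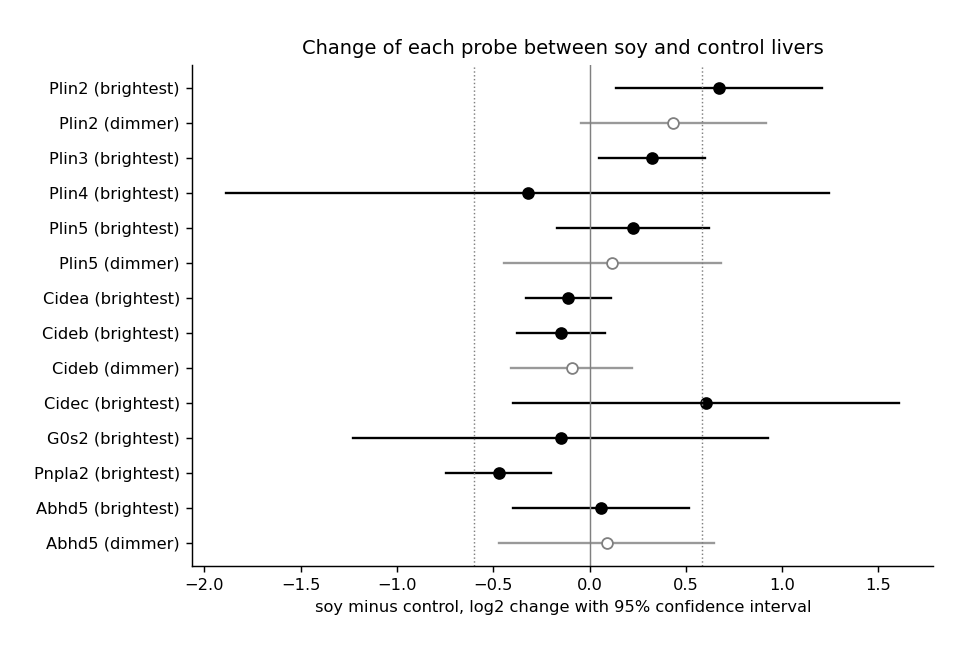
Difference between soy and control livers for each of the 14 probes (x axis, log2, soy minus control), where the points are estimates of limma and the bars their 95% confidence intervals; filled points are the brightest probe of a gene, open points its dimmer probe, and the dotted lines mark fold changes of 1.5 and 0.66. Plin2 (0.67), Plin3 (0.32) and Pnpla2 (-0.47) have intervals that leave out 0 on their brightest probe, while the interval of Plin4 reaches from -1.89 to 1.24.

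Plin2 (NM_007408), also called adipophilin, is the main perilipin of the liver and is found on nearly every droplet there. Its brightest probe read 14.40, 14.47 and 14.96 on control arrays, and 14.81, 15.46 and 15.57 on those of soy (normalized signal, log2). Soy 2 and soy 3 lay above every control array, while soy 1 lay below control 3, and so the groups overlapped. The means were 14.61 ± 0.30 in control and 15.28 ± 0.41 in soy (SD, n = 3), a difference of 0.67 (SE 0.23, adjusted p = 0.321) or 1.59-fold, with a 95% confidence interval from 0.14 to 1.21 on the log2 scale. The dimmer Plin2 probe read 10.24, 10.69 and 10.93 in control and 10.74, 11.26 and 11.17 in soy, a difference of 0.44 (SE 0.21, adjusted p = 0.477). Both probes had their lowest value on control 1, and on both control 3 was the highest control. Within slide 1 the difference of the brightest probe was 0.38, and within slide 3 it was 0.61.

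Kupffer cells, the macrophages of the liver, hold lipid droplets as well, and in a whole liver more cells of a type and more RNA per cell cannot be told apart. The mean over 7 Kupffer cell markers was 11.16, 11.59 and 11.992 (log2) in control and 11.38, 11.69 and 11.998 in soy. The group means were 11.58 and 11.69. On slide 3 the marker mean was thus nearly equal on control 3 and soy 3, where the brightest Plin2 probe differed by 0.61. On the brightest Plin2 probe too, control 1 and soy 1 were the lowest arrays of their groups and control 3 and soy 3 the highest, while on the dimmer probe soy 2 was the highest soy array. None of the 7 markers passed, 6 of them were above 0 (11187 of 22911 over all genes), and their median difference was 0.15. Cd5l differed by 0.45 (adjusted p = 0.539), Vsig4 by 0.43 (adjusted p = 0.491) and Timd4 by 0.34 (adjusted p = 0.639). Clec4f differed by 0.15 (adjusted p = 0.880), Cd68 by 0.083 (adjusted p = 0.866) and Adgre1 by 0.026 (adjusted p = 0.978). Marco was on the lower side (-0.73, adjusted p = 0.589). The part of these cells in the Plin2 values was not tested.

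Plin3 (NM_025836), known as TIP47, moves from the cytosol to newly formed droplets. Its probe read 12.38, 12.52 and 12.22 in control and 12.56, 12.77 and 12.76 in soy livers. Every soy array lay above every control array, though soy 1 exceeded control 2 by less than the spread of either group. The difference was 0.32 (SE 0.12, adjusted p = 0.355) or 1.25-fold, with an interval of 1.03-fold to 1.52-fold. It was 0.11 within slide 1 and 0.55 within slide 3.

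Plin4 (NM_020568), a long perilipin best known from fat tissue, varied far more between mice of one diet than between diets. It read 11.79, 9.46 and 9.34 on control arrays, and 10.74, 9.19 and 9.70 on those of soy. Control 1 was the highest array and soy 1 the next, while the other arrays lay between 9.19 and 9.70. The means were 10.20 ± 1.38 and 9.88 ± 0.79 (SD, n = 3), and the difference of -0.32 (SE 0.67, adjusted p = 0.893) had an interval from -1.89 to 1.24. Without control 1 it was 0.47, and without soy 2 it was 0.023, so its direction rests on single arrays. It was 0.11 within slide 1 and 0.36 within slide 3.

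Plin5 (NM_001077348), which ties droplets to mitochondria in tissues that burn fat, read 14.41, 14.07 and 13.71 in control and 14.28, 14.27 and 14.32 in soy livers. The soy arrays lay inside the control range, and they were nearly equal, with an SD of 0.025 against 0.35 in control. The difference was 0.23 (SE 0.17, adjusted p = 0.663), with an interval from -0.17 to 0.62. The dimmer probe read 13.29, 12.62 and 12.24 in control and 12.91, 12.86 and 12.75 in soy, a difference of 0.12 (SE 0.24, adjusted p = 0.889). The order of the control arrays was the same on both probes. Without control 3 the difference on the brightest probe was 0.052, and without control 1 it was 0.40. Within slide 1 it was 0.040, and within slide 3 it was 0.61.

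**Figure D2:**
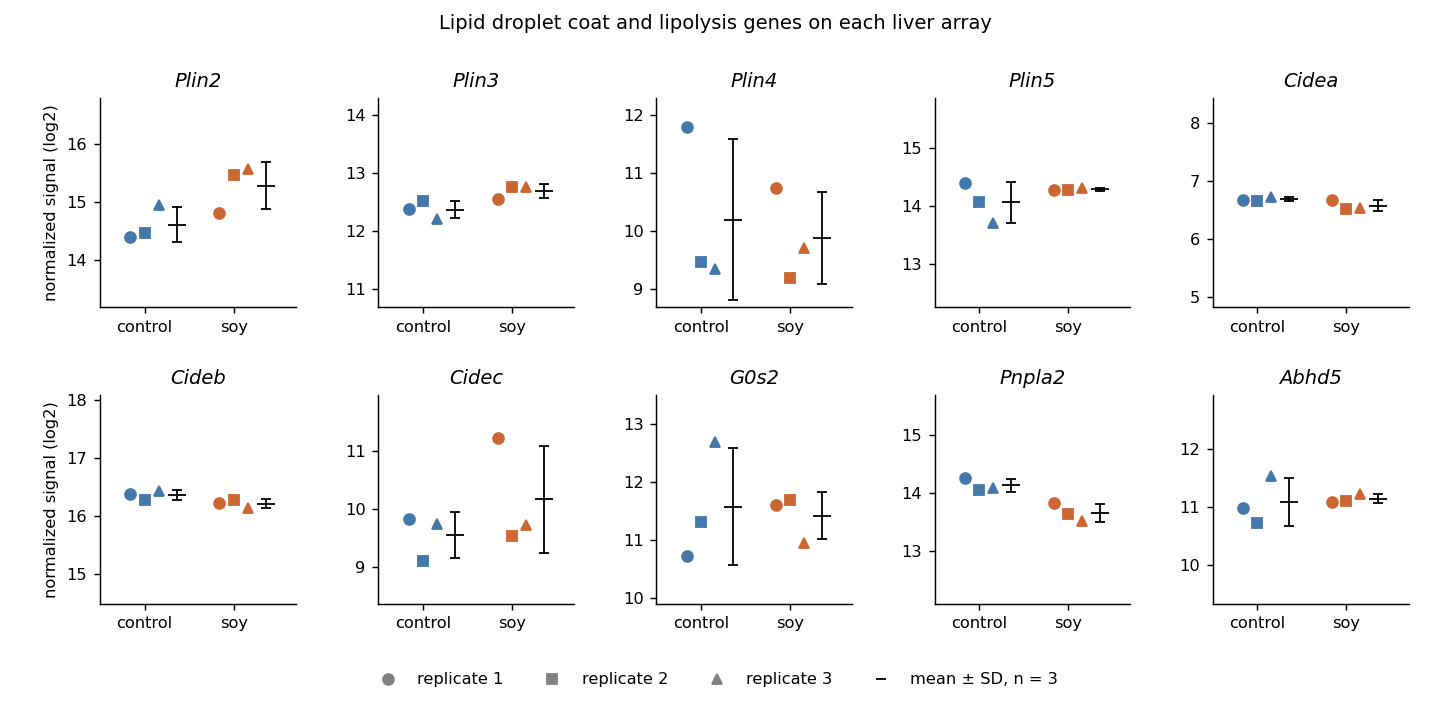
Normalized signal (y axis, log2) of the brightest probe of each of the 10 genes on the 3 control and 3 soy arrays; the symbols mark the replicate, the bars show mean ± SD (n = 3), and all panels span the same number of log2 units. The groups stay apart for Plin3 and Pnpla2 alone, while Plin4 (control 1 and soy 1), Cidec (soy 1) and G0s2 (control 3) have arrays far from the rest of their group.

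Cidea (NM_007702), a fusion protein best known from brown fat, was near the limit of detection. Its probe was well above background on 1 control array and on no soy array. It read 6.68, 6.67 and 6.73 in control and 6.69, 6.53 and 6.53 in soy livers, with soy 1 inside the control range, and the lower soy values are only upper bounds. The difference on the measured values was -0.11 (SE 0.095, adjusted p = 0.714), and control was at least 1.00-fold the level in soy, which sets no bound away from equality.

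Cideb (NM_009894), the Cide gene of the hepatocyte with a further role in the lipidation of VLDL, was the steadiest member that was well above background throughout. Its brightest probe read 16.39, 16.27 and 16.44 in control and 16.23, 16.28 and 16.14 in soy livers. Soy 2 lay just above control 2, and the other soy arrays lay below all control arrays. The difference was -0.15 (SE 0.098, adjusted p = 0.621), with an interval from -0.38 to 0.080. The dimmer probe gave -0.092 (SE 0.13, adjusted p = 0.840). The intervals of both probes leave out a fold change of 1.5 in either direction.

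Cidec (NM_178373), known as FSP27, drives the growth of large droplets and is scarce in a lean liver. It read 9.83, 9.11 and 9.74 on control arrays, and 11.23, 9.54 and 9.72 on those of soy. Soy 1 was higher than any other array, and soy 2 and soy 3 lay inside the control range. The difference was 0.61 (SE 0.43, adjusted p = 0.648), with an interval from -0.40 to 1.61, and without soy 1 it was 0.074. Within slide 1, which holds soy 1, it was 1.76, and within slide 3 it was -0.017.

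Pnpla2 (NM_001163689), the lipase that begins lipolysis, had the smallest p of the set and lay on the lower side. Its probe read 14.26, 14.05 and 14.09 in control and 13.82, 13.64 and 13.52 in soy livers. Each soy array lay below each control array, and the gap between the groups was larger than the SD of either. The means were 14.13 ± 0.11 and 13.66 ± 0.15 (SD, n = 3), a difference of -0.47 (SE 0.12, adjusted p = 0.175). Control was 1.39-fold soy, and soy was 0.72-fold control with an interval of 0.60-fold to 0.87-fold. It was -0.33 within slide 1 and -0.56 within slide 3, and -0.40 to -0.55 with 1 array left out. The adjusted p lay between 0.104 and 0.398 over all alternative fits, so the gene did not pass in any of them.

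Adipocytes are rich in Pnpla2. Of 10 adipocyte markers 9 were below 0, beside 11724 of 22911 over all genes, with a median difference of -0.15. None of the markers passed. Their mean was 9.66, 9.70 and 9.77 (log2) on control arrays, and 9.67, 9.48 and 9.46 on those of soy. Of the 10 markers, Lep, Fabp4, Adrb3, Aqp7, Car3 and Lpl were well above background on all 6 arrays, and Adipoq on none. Retn and Slc2a4 were well above background on no soy array. Car3 had means of 17.70 in control and 17.58 in soy, near those over the hepatocyte markers (18.02 and 17.91). Cfd, the marker above 0, was well above background on 1 control and 1 soy array. It was highest on soy 1 (8.19, with 6.25 to 7.10 on the other arrays). Lep differed by -0.21 (adjusted p = 0.618). Lpl, which other cells of the liver express too, differed by -0.71 (adjusted p = 0.287). The part of adipocytes in the values of Pnpla2, Plin4 and Cidec was not tested.

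G0s2 (NM_008059), the inhibitor of Pnpla2, read 10.73, 11.32 and 12.69 in control and 11.62, 11.71 and 10.96 in soy livers. The soy arrays lay inside the control range, which spanned 1.96 log2 units from control 1 to control 3. The difference was -0.15 (SE 0.46, adjusted p = 0.930), with an interval from -1.23 to 0.93. It was 0.40 without control 3 and 0.083 without soy 3, and it was 0.59 within slide 1 against -1.73 within slide 3. For G0s2 the arrays therefore give no direction.

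Abhd5 (NM_026179), the activator of Pnpla2, read 10.98, 10.72 and 11.53 in control and 11.09, 11.11 and 11.22 in soy livers. The soy arrays lay close together inside the control range. The difference was 0.060 (SE 0.20, adjusted p = 0.933), with an interval from -0.40 to 0.52, and the dimmer probe gave 0.089 (SE 0.24, adjusted p = 0.920). Without control 2 it was -0.12, and within slide 3 it was -0.31. For each of the 4 genes with 2 probes, both probes had the same sign.

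The spread between mice of one group differed widely within the set. The residual SD around the group means was 1.12 for Plin4, 0.77 for G0s2 and 0.71 for Cidec, against a median of 0.16 over the 13513 genes that were well above background on all 6 arrays. Of these genes, 99.7% had a smaller residual SD than Plin4, 99.1% than G0s2 and 98.8% than Cidec. Plin3 (0.14), Pnpla2 (0.13) and Cideb (0.079) lay below the median, and Plin2 (0.36), Abhd5 (0.30) and Plin5 (0.25) above it. The members with the widest intervals were thus those with single arrays far from the others, namely control 1 and soy 1 for Plin4, soy 1 for Cidec and control 3 for G0s2.

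For these 3 members, the genes nearest in pattern were found by the root mean square difference of mean-centred log2 values over the 6 arrays, among 13497 genes with a value on each. Nearest to Plin4 were Pltp (0.30), a phospholipid transfer protein of plasma, Tsc22d4 (0.34) and Lyve1 (0.40), a receptor of sinusoidal endothelium. Pltp read 12.67, 11.06 and 11.03 in control and 11.81, 10.78 and 11.15 in soy, with control 1 and soy 1 as its highest arrays. Nearest to Cidec were Lamb3 (0.22), a laminin chain, Mme (0.26), a membrane peptidase, and Adgrv1 (0.29), and each had its highest value on soy 1. Nearest to G0s2 were Serpina9 (0.23), Onecut1 (0.26), a hepatocyte transcription factor, and Nrep (0.27), each highest on control 3. The choice was made for likeness in these arrays, and no test was run.

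**Figure D3:**
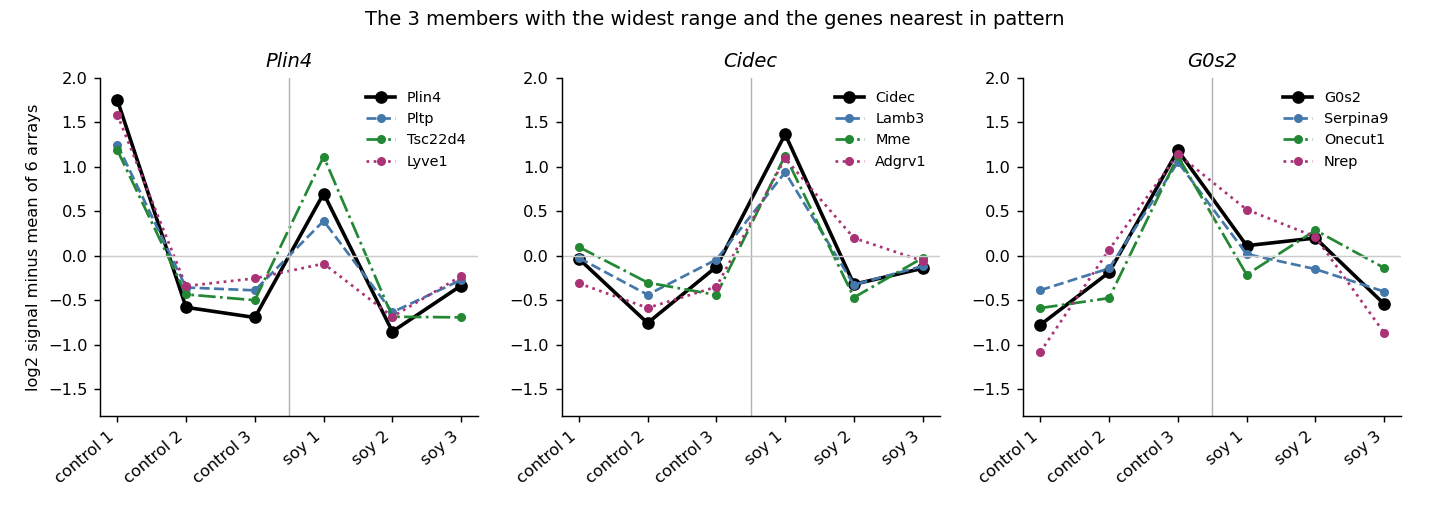
Mean-centred signal (y axis, log2) on the 6 arrays (x axis) for the 3 members with the widest range, in black, and for the 3 genes nearest to each in pattern, in colour. Control 1 and soy 1 are the highest arrays for Plin4, soy 1 for Cidec and control 3 for G0s2, and the vertical line parts the control from the soy arrays.

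Other genes of the droplet and of triglyceride turnover were taken from lists by role. Among 15 other lipid droplet proteins none passed, 12 were above 0 (11187 of 22911 over all genes), and the median difference was 0.14. On this list 4 genes lay on the higher side without overlap (9.66% of all genes) and 1 on the lower side (10.8% of all genes). The largest differences were in Fitm1 (1.44, adjusted p = 0.0529), which takes part in droplet budding, Hsd17b11 (0.89, adjusted p = 0.153), a droplet dehydrogenase, and Spg20 (0.63, adjusted p = 0.180), all without overlap. Plin1, the perilipin of adipocytes, and Cav1 were at the background throughout.

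Of 13 other lipases 1 passed on the higher side and none on the lower, with a median difference of 0.40. It was Ces1d, a carboxylesterase that hydrolyses stored triglyceride, at 14.17, 14.32 and 14.42 in control and 16.02, 15.68 and 15.74 in soy livers. Ces1d rose by 1.51 (adjusted p = 0.0101), while Pnpla2 in the same livers was on the lower side. Ces1g (0.57, adjusted p = 0.569) and Abhd6 (0.50, adjusted p = 0.254) followed in size. Lipe, the hormone-sensitive lipase that acts after Pnpla2, differed by -0.022 (adjusted p = 0.959), and Mgll, the monoglyceride lipase, by 0.40 (adjusted p = 0.399). The patatin lipase Pnpla3 was near the limit of detection, at 7.36, 7.23 and 6.88 in control and 6.69, 6.77 and 6.78 in soy livers. The difference on the measured values was -0.41 (adjusted p = 0.308). Pnpla3 was well above background on all control arrays and on no soy array, but soy arrays had fewer such probes in general.

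Of 9 triglyceride synthesis genes 1 passed, Lpin1 on the lower side (-3.02, adjusted p = 0.0172), and the median was -0.15. Gpam (0.61, adjusted p = 0.191) and Agpat2 (0.54, adjusted p = 0.169) did not pass. None of 10 regulators known to act on droplet genes passed, and the median was 0.0048. Pparg, a receptor that drives Cidec and Plin2, differed by 1.25 (adjusted p = 0.0811) without overlap, Srebf1 by 0.68 (adjusted p = 0.512) and Foxo1 by -0.41 (adjusted p = 0.518). Ppara itself differed by 0.066 (adjusted p = 0.929).

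The members were set beside a list of 22 PPARA targets that leaves them out. Of these 22 genes 5 passed on the higher side and none on the lower, and the median difference was 0.60. Plin2 differed by 0.67 with overlap between the groups (adjusted p = 0.321). Those that passed were Cyp4a14 (3.27, adjusted p = 0.00785), Pdk4 (1.87, adjusted p = 0.0151), Acot1 (1.78, adjusted p = 0.0316), Acot2 (1.44, adjusted p = 0.0130) and Acaa1b (1.13, adjusted p = 0.0194), enzymes of fatty acid oxidation and acyl-CoA turnover with the kinase Pdk4, and Cyp4a14 was well above background on 2 of the 3 control arrays. Vnn1 (2.41, adjusted p = 0.163) and Cyp4a10 (2.15, adjusted p = 0.228) were larger than most of these but did not pass. On this list 16 of 22 genes lay on the higher side without overlap (9.66% of all genes) and 2 on the lower side (10.8% of all genes), the latter being Angptl4 (-0.64, adjusted p = 0.0689) and Cpt1a (-0.51, adjusted p = 0.256). The other members, several of them known PPARA targets too, did not all share the direction of Plin2. Cidec (0.61), Plin3 (0.32), Plin5 (0.23) and Abhd5 (0.060) were above 0 as well. Pnpla2 (-0.47), Plin4 (-0.32), G0s2 (-0.15), Cideb (-0.15) and Cidea (-0.11, near the limit of detection) were below it. The part of PPARA in the values of Plin2 and the other members was not tested.

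Of 11 lipogenesis genes 1 passed, Acacb on the lower side (-1.03, adjusted p = 0.0401), with a median of -0.45. Thrsp (-1.43, adjusted p = 0.305, without control 1, whose spot was marked as an outlier) and Elovl6 (-1.06, adjusted p = 0.196) did not pass. Of 12 genes of the fasting response 2 passed, both on the lower side, Igfbp1 (-2.50, adjusted p = 0.0244) and Got1 (-2.21, adjusted p = 0.0310), with a median of -0.77. Fkbp5 differed by -1.18 (adjusted p = 0.146).

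**Figure D4:**
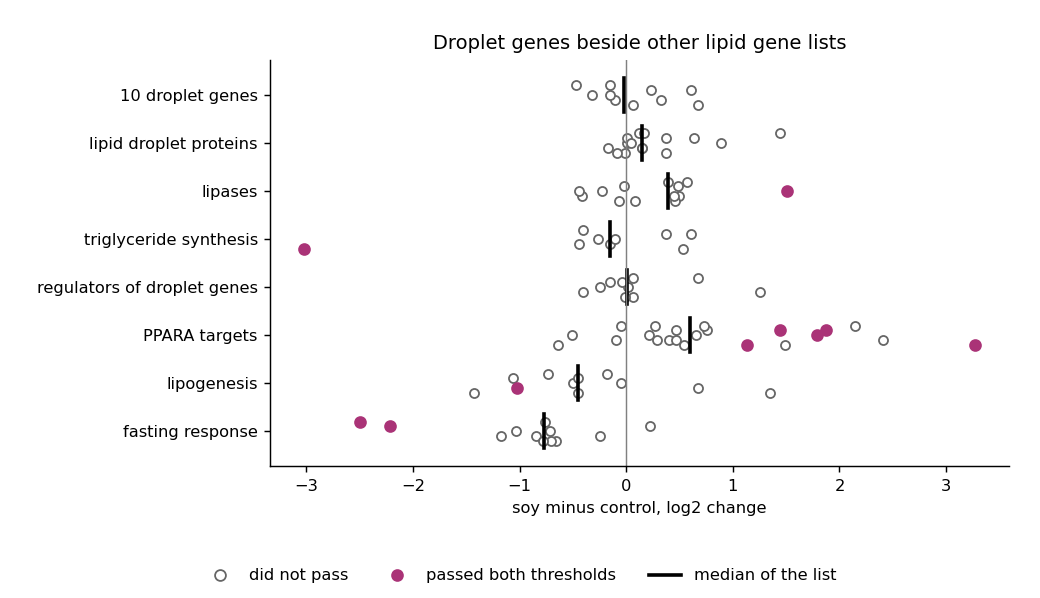
Difference between soy and control livers (x axis, log2, soy minus control) for the 10 droplet genes and 7 other lists, where each point is a gene by its brightest probe, filled points passed both thresholds, and black bars mark the median of a list. The droplet genes centre on -0.025 with none passed, and the PPARA targets on 0.60 with 5 passed.

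The arrays carry the markers of liver. All 8 hepatocyte markers were well above background in both groups, none passed, and their median difference was -0.077. The largest difference was in Cps1 (-0.47, adjusted p = 0.176), and Alb (-0.14, adjusted p = 0.690) and Trf (-0.11, adjusted p = 0.735) followed. No marker of another cell type passed, among 5 of skeletal muscle (median 0.095), 6 of stellate cells (-0.16), 6 of endothelial cells (0.067) and 5 of cholangiocytes (0.12). The muscle genes Ckm, Myh4 and Mb and the cholangiocyte gene Epcam were well above background on none of the arrays. Of the markers for skeletal muscle, where Plin5 and Plin4 are also expressed, Tnnt3 differed by -0.028 (adjusted p = 0.941). Acta1 was well above background on no soy array and differed by -0.30 on the measured values (adjusted p = 0.600). In the other lists the largest differences were in Col1a1 (-0.99), Colec11 (-0.33) and Reln (-0.23) for stellate cells and in Lyve1 (-0.66), Kdr (0.31) and Cdh5 (0.22) for endothelium. They were in Marco (-0.73), Cd5l (0.45) and Vsig4 (0.43) for Kupffer cells and in Adrb3 (-0.42) beside Lpl and Lep for adipocytes. For cholangiocytes they were in Sox9 (-0.16), Spp1 (0.15) and Krt7 (-0.14 on the measured values, well above background on no soy array).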

How the data were processed

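The authors processed the scans of 6 single-colour arrays with Agilent Feature Extraction 11.5.1.1 and deposited, per the file headers, per spot a median intensity for the foreground and one for the surrounding background, not scaled between arrays, a processed intensity from which background had been subtracted, and marks for outliers and for spots well above background. They also deposited log2 values that share their quantiles across arrays.

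Median intensities were corrected by normexp (offset 50), control spots removed, arrays quantile normalized, outlier spots left out and spots of a probe averaged. Soy was tested against control over 56605 probes with limma 3.58.1 (R 4.3.3), p-values being adjusted by Benjamini-Hochberg as in the study. RefSeq accessions named 32994 probes with the help of a GRCm38.p6 gene table. Positions are left out, since the array annotation uses a different build. A gene is given by its brightest probe. The text names each member, the genes of each other list that passed and its 3 largest differences where either group was well above background throughout. One result that this rule names is not reported here. The members and lists were chosen with earlier results of these data known. Single genes beyond the rule (Clec4f, Adgre1, Timd4, Cd68, Lipe, Mgll, Pnpla3, Ppara, Angptl4, Cpt1a, Cfd, Car3, Retn, Slc2a4) were chosen after their values were seen. Alternatives changed the background correction, the scaling, the filter on dim probes, the block (slide or replicate number) and the arrays in the fit. Python 3.11.15 with pandas 2.3.3 and matplotlib 3.10.9 made tables and plots. The number of arrays, 3 a group, limits precision.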

Additional observations from a re-analysis of the deposited data

How the results depend on the processing

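No member passed in any of 18 alternative fits, nor by adjusted p alone. Of 199 alternative values of single members, 186 kept the direction and 13 turned it, among Plin4, Cidea, Cidec, G0s2 and Abhd5, while Plin2, Plin3, Plin5, Cideb and Pnpla2 kept theirs in each. The median of the members (-0.025) was 0.092 after a 75th-percentile shift in place of quantile normalization, 0.060 with only detected probes tested, 0.11 with slide as a block, 0.11 within slide 1 and -0.11 within slide 3, and -0.12 to 0.17 with 1 array left out. The members above 0 were 8 within slide 1. The 75th-percentile shift also put the median of all genes at 0.11 and turned Cidea (0.13), and the slide block turned Plin4 (0.22). Within slide 1, Plin4 (0.11), Cidea (0.012) and G0s2 (0.59) turned, and within slide 3 Plin4 (0.36), Cidec (-0.017) and Abhd5 (-0.31). With 1 array left out, Plin4 ranged from -0.75 to 0.47, G0s2 from -0.58 to 0.40 and Abhd5 from -0.12 to 0.29. The cause of these turns was not tested. In an alternative chosen after seeing the data, the members without overlap numbered 2 to 4 with 1 array left out, a count that can only stay or grow, beside 28.3% to 32.2% of all genes over the same arrays. It was 4 of 10 without control 3 (31.7% of all genes) and without soy 1 (32.2%), and no more is read from it.

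The count over all probes, 198, was 13138 with the processed signal (11924 higher, 1214 lower), 493 with only detected probes, 299 after the 75th-percentile shift, 77 with an offset of 16, 24 with slide as a block and 23 to 199 with 1 array left out. The replicate numbers did not pair the arrays: deviations of same-numbered arrays correlated at 0.12, -0.06 and 0.11, and not every array correlated best with its own number. With the replicate block 0 members and 77 probes passed, and the adjusted p was 0.179 for Plin2, 0.407 for Plin3 and 0.188 for Pnpla2. For Cidea, at the background, signal limits any statement.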
